A study of Mus musculus with 412 samples.

Results

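The genes described here are 10 transcripts best known from the cells that line blood vessels, read in sensory neurons picked by hand from mouse dorsal root ganglia (DRG). Cldn5, Cdh5, Pecam1, Esam, Flt1, Kdr, Tek, Egfl7, Ly6a and Ly6c1 were chosen by name from 45513 genes in the deposited table because earlier readings of the same data had shown them in some of the neurons. The neurons came from C57BL/6J mice whose colon wall had been injected with the retrograde tracer Fast Blue, 3 to 10 days before the ganglia were taken. Thoracolumbar ganglia (TL, T10 to L1) and lumbosacral ganglia (LS, L5 to S2) were dissociated as 2 separate primary cultures, Fast Blue-positive cells were drawn up one at a time in a pulled pipette, and each was carried through Smart-seq2, a full-length method for polyadenylated RNA. The table holds 325 neurons, 167 TL and 158 LS, of 399 listed, in 6 library plates. Plate 1 holds 5 TL neurons and no LS neuron, and 13 bath controls were not analysed here.

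No mouse is named for any neuron, so TL and LS are 1 sample each, with no replicate check and no test between them. Values are TPM, transcripts scaled for gene length to a sum of 1000000 in each neuron, and a gene is called present at 10 TPM or more. Each share has its 95% interval by the exact Clopper-Pearson method, for counting error alone. Each neuron held 416007 to 12058968 recovered reads (median 2867071) and 6291 to 17193 genes above 0 (median 13658).

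Endothelial cells are held together by junction proteins and read the vascular growth factors through receptor tyrosine kinases on their surface. In a ganglion they form capillaries that run between the nerve cell bodies, each of which is wrapped in satellite glia. Several of the genes used to mark endothelium are not exclusive to it, and neurons or blood cells can also transcribe them.

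Of the 4 junction genes, Cldn5 encodes claudin-5, the main tight junction protein of brain endothelium, and lies on chromosome 16 (GRCm38, 18776847 to 18778262). Cdh5 (chromosome 8, 104101625 to 104144511) encodes VE-cadherin of the adherens junction. Pecam1 (chromosome 11, 106654217 to 106750628) and Esam (chromosome 9, 37528078 to 37538319) encode immunoglobulin-type adhesion molecules. The receptors are Flt1 (chromosome 5, 147561604 to 147726011) and Kdr (chromosome 5, 75932827 to 75978458), which bind vascular endothelial growth factors, and Tek (chromosome 4, 94739289 to 94874976), the angiopoietin receptor. Egfl7 (chromosome 2, 26580014 to 26593120) encodes a secreted protein of vessel walls and holds the microRNA gene Mir126a within it. Ly6a and Ly6c1 (chromosome 15, 74994877 to 74998031 and 75044018 to 75048830) encode small surface proteins anchored in the membrane by a lipid, known from endothelium, blood stem cells and lymphocytes.

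The sequences upstream of Cldn5 and Egfl7 are shown because these had reads in the fewest and in the most neurons. They are the 250 bases before each RefSeq start in GRCm38.p6, written 5′ to 3′ on the gene's strand, with AGGAAG or its reverse complement CTTCCT, the core of many ETS factor motifs, and GGGCGG or CCGCCC, the GC box, in capitals.
Cldn5, chr16:18776597-18776846 (+): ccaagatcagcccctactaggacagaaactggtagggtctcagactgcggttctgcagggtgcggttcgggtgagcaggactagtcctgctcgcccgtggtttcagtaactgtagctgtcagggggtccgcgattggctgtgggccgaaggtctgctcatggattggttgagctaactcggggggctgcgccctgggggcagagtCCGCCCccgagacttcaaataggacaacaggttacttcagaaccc
Egfl7 start 1, chr2:26580833-26581082 (+): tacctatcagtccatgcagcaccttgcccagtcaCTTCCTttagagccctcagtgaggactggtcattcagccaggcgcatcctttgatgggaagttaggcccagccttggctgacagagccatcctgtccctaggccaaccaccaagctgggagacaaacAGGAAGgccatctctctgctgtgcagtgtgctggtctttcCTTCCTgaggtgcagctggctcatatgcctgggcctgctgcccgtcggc
Egfl7 start 2, chr2:26583615-26583864 (+): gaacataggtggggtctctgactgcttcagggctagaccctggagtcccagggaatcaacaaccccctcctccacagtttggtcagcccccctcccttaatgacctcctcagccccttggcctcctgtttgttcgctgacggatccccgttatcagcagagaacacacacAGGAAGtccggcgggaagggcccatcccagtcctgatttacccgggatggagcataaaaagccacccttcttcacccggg
Egfl7 start 3, chr2:26586386-26586635 (+): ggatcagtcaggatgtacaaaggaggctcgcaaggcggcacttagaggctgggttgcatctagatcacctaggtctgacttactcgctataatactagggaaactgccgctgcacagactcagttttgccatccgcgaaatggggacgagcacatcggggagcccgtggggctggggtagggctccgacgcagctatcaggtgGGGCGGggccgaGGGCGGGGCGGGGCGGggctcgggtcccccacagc
Cldn5 had 1 GC box and no AGGAAG, and the 3 Egfl7 starts had 3, 1 and 0 matches to AGGAAG and 0, 0 and 4 matches to the GC box, of which 3 overlap. Among all 32851 windows of the RefSeq table, 29.5% held AGGAAG on either strand and 32.7% held a GC box. The values are sums over each gene, so they do not say which Egfl7 start was used in these neurons. The table holds windows for 6 of the 10 members.

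Mir126a lies in an Egfl7 intron and gives the best known endothelial microRNA, printed here with its seed (bases 2 to 8) in capitals.
mmu-miR-126a-3p: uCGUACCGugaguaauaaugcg
Its gene was listed at 0 in all 325 neurons, in a method that primes on poly(A) tails and is not made for microRNAs.

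One library stood apart from all others before any comparison was made. TL replicate 43, of plate 3, held all 10 genes at 10 TPM or more, while no other neuron held more than 4. Of the 325 neurons, 26 held none, 178 held 1, 109 held 2, 8 held 3 and 3 held 4. Results below are given with and without TL replicate 43, or without it where so stated.

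**Figure D1:**
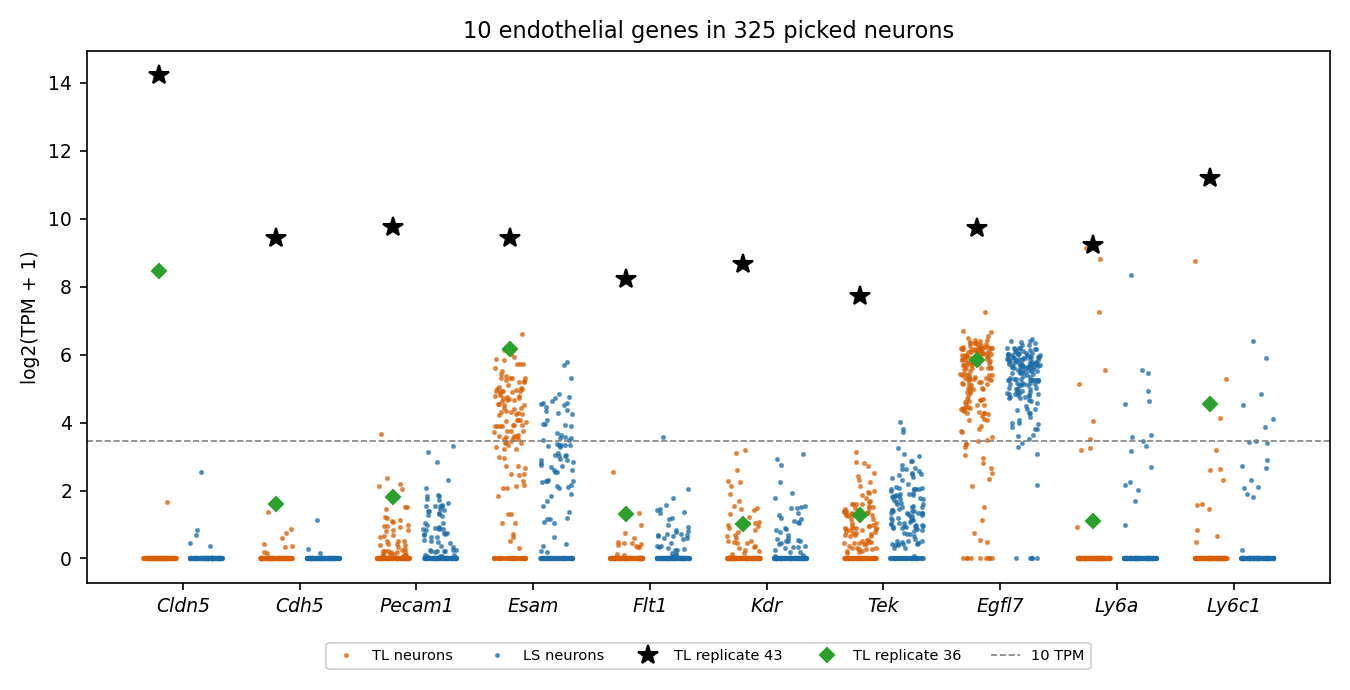
TPM of the 10 genes on a log2(TPM + 1) axis in each of 325 neurons, with TL neurons in orange and LS neurons in blue, TL replicate 43 as a star, TL replicate 36 as a diamond and a dashed line at 10 TPM. The star is the highest value of every gene, from 212 TPM for Tek to 19217 TPM for Cldn5, while Egfl7 and Esam form broad bands in the other neurons.

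In TL replicate 43 the junction genes reached 19217 TPM for Cldn5, 857 for Pecam1, 688 for Esam and 685 for Cdh5. The receptors reached 403 TPM for Kdr, 296 for Flt1 and 212 for Tek. Egfl7 stood at 851 TPM, Ly6c1 at 2324 and Ly6a at 597. All 10 values were the highest of the 325 neurons, where 11.6% of the 8817 genes above 0 in this library had their highest value in it. The lead over the next neuron ran from 1.07 times for Ly6a to 333 times for Cdh5.

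Reads on these genes were concentrated in that library. It held 20176 of the 21292 reads on Cldn5 in the whole table (94.8%), 97.6% of those on Cdh5, 76.1% of those on Pecam1 and on Flt1, and 73.7% of those on Ly6c1. For Kdr the figure was 59.9%, for Ly6a 26.6%, for Tek 20.6%, for Esam 10.3% and for Egfl7 3.11%. For Egfl7 and Esam nearly all reads thus lay in other neurons, and for Cldn5 and Cdh5 nearly none.

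Other endothelial genes went the same way in TL replicate 43. Of 30 further pan-endothelial genes, 25 were at 10 TPM or more and 25 had their highest value of all neurons there, among them Eng, a co-receptor of the TGF-beta family, at 1902 TPM, the sphingosine receptor gene S1pr1 at 1688, Adgrl4 at 779 and Plvap, which forms the diaphragms of endothelial pores, at 716. Nos3, the endothelial nitric oxide synthase, was listed at 0 and Erg at 4.66 TPM. Of 10 genes for vessels with a blood-nerve or blood-brain barrier, 8 were at 10 TPM or more. Among them were Pltp at 990, the glucose transporter gene Slc2a1 at 964 and the organic anion transporter gene Slco1a4 at 699 TPM. The barrier list summed to 4554 TPM, against a median of 121 and a maximum of 1574 TPM in 323 other neurons.

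Genes of vessel type were split. Of 10 arterial genes 6 were at 10 TPM or more, with Gja4 at 277, Hey1 at 269 and the Notch ligand gene Dll4 at 247 TPM, while Gja5, Mgp and Fbln5 were at 0. Of 8 venous genes 3 were, the highest being Ephb4 at 56.6 TPM, and Nr2f2, Selp, Sele and Vcam1 were at 0. Of 7 capillary genes 4 were, with Kitl at 592 and Esm1 at 577 TPM. All 5 lymphatic genes, Prox1, Lyve1, Flt4, Pdpn and Ccl21a, were at 0. The arterial genes summed to 951 TPM, against a median of 34.3 and a maximum of 1042 TPM in 323 other neurons. For the venous genes the sum was 142 TPM, against 87.0 and 411. For the capillary genes it was 1655 TPM, against 57.6 and 4194. These 3 sums thus lay within the range of other neurons. No share of all genes at 10 TPM or more is set beside the counts.

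Several lists of markers for other cells of the ganglion were at 0 in this library, but not all lists were low. All 10 fibroblast genes, 6 MHC class II genes, 5 erythrocyte genes and 7 lymphocyte genes were at 0. In 323 other neurons these lists had median sums of 180, 30.5, 7.35 and 0 TPM, so the lymphocyte genes say little. The 10 mural cell genes, 9 of them at 0 and none at 10 TPM or more, summed to 8.49 TPM, above a median of 4.07 TPM in those neurons. Of 10 macrophage genes 9 were at 0, and Cd68 stood at 51.4 TPM. That alone put the macrophage sum above the median of 32.7 TPM in those neurons. Of 10 Schwann cell genes 4 were at 10 TPM or more, but 5, Sox10 among them, were at 0. Their sum was 458 TPM, below a median of 840 TPM in those neurons.

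TL replicate 43 also held transcripts of neurons, at low levels. Of 10 neuron genes, 9 were at 10 TPM or more. The neuron-specific tubulin gene Tubb3 stood at 740 TPM against a median of 6688 in the 323 neurons other than TL replicates 43 and 36, Uchl1 at 847 against 3598, the intermediate filament gene Prph at 504 against 3477 and Nefl at 1067 against 1114. The sum of the 10 genes was 3495 TPM, where the other 323 neurons ranged from 2221 to 30019 with a median of 16198, and 2 of them had a lower sum. Of the 7 genes that the study uses to mark its neuron subtypes, 6 were at 0 and Trpa1 was at 0.316 TPM. The library labelled as a colonic sensory neuron thus held low neuron markers and high endothelial ones, and whether 1 or several cells entered the pipette was not tested.

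Glial genes of TL replicate 43 went both ways. Fabp7, the fatty acid binding protein gene that marks satellite glia, was at 40.9 TPM against a median of 90.5 in the other 323 neurons. Apoe was at 109.5 TPM against a median of 776. Glul at 548, Gja1 at 340 and Sparc at 1005 TPM had ranks 2, 2 and 10 of 325 from the highest, and Kcnj10, Sox2, Cdh19 and Ptprz1 were at 0. The library had 8817 genes above 0, and 11.4% of neurons had fewer.

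TL replicate 36, of the same plate, was the only other neuron with Cldn5 at 10 TPM or more, at 353 TPM from 1096 reads. The next neuron held 4.84 TPM of Cldn5 from 9 reads, and 5 more held 1 to 6 reads. In TL replicate 36 the other vascular members were near the floor, with Pecam1 at 2.49, Cdh5 at 2.06, Flt1 at 1.46, Tek at 1.45 and Kdr at 1.00 TPM. Esam at 71.3 and Egfl7 at 56.9 TPM lay within the range of ordinary neurons.

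Many genes of TL replicate 43 had a few reads in this neuron. A set of 145 genes was at 50 TPM or more in TL replicate 43 and at 10 TPM or more in under 2% of the 323 neurons other than these libraries. It was chosen after the values of both had been seen, and 6 members are in it. The choice made these genes rare in the 323 neurons and put no such limit on TL replicate 36, so the counts are a description. TL replicate 36 had reads on 104 of the 145, while the other 323 neurons had reads on 0 to 61, with a median of 21. Since 17102 genes were above 0 in TL replicate 36, more than in all but 1 other neuron, the 12 other neurons with 16000 or more genes are the closer comparison, and these had reads on 36 to 61. When each neuron was in turn left out of the choice of its own set, which then held 145 to 147 genes, the other neurons still had reads on at most 61.

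Spearman's rho between the levels of the 145 genes in the 2 libraries was 0.47, over genes that are not independent of each other. With any of the other neurons it was at most 0.19, where the choice of rare genes leaves many ties at 0. Where TL replicate 36 had reads, its median level was 0.753% of that in TL replicate 43 (quartiles 0.396% and 1.405%), and the share for Cldn5 was 1.84%. The genes took 5.82% of the reads of TL replicate 43 and 0.0588% of those of TL replicate 36. Their sum in TL replicate 36, 575 TPM, was not the highest among the rest, where 1 neuron reached 1478 TPM.

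**Figure D2:**
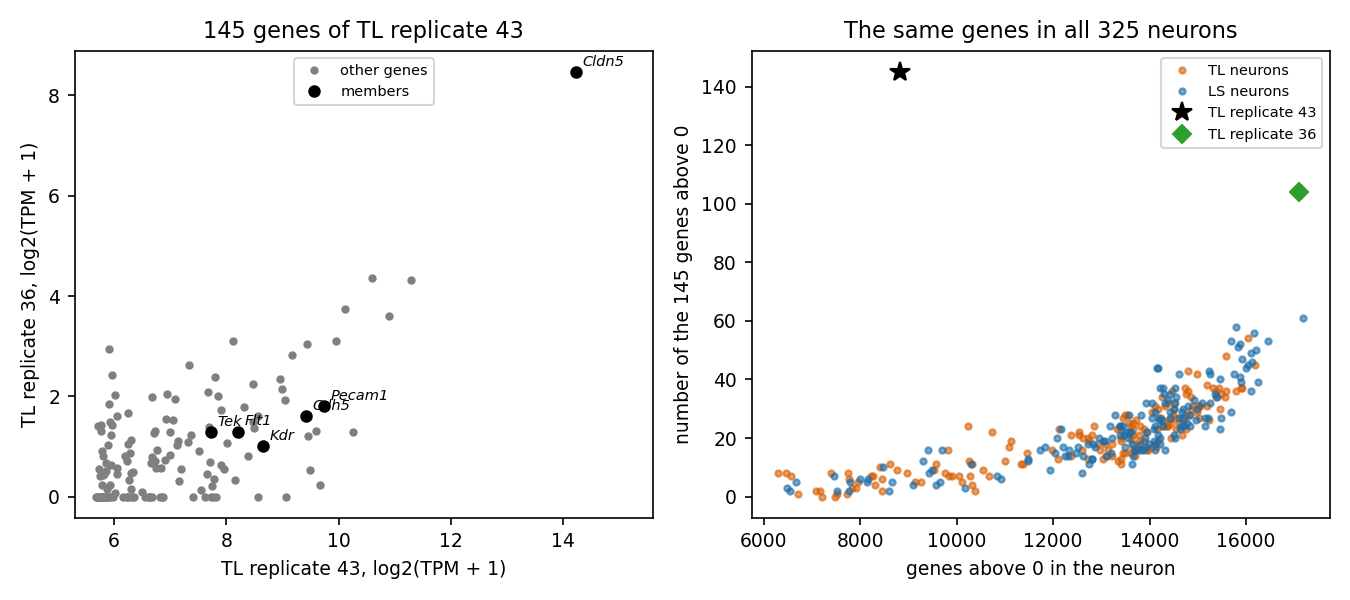
Left, the 145 genes with TL replicate 43 on the horizontal and TL replicate 36 on the vertical axis, both log2(TPM + 1), and 6 members in black. Right, the number of these genes with reads against the genes above 0 in each of 325 neurons, where TL replicate 36 (diamond) has 104 and all other neurons except TL replicate 43 (star) have 61 or fewer.

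The other neurons of plate 3 had fewer of these genes. Its 45 other neurons had reads on a median of 26 and at most 54 of the 145 genes, against a median of 20 and at most 61 in the other plates. Satellite glia genes were present in TL replicate 36, with Fabp7 at 511 TPM and Apoe at 6253 TPM, and its 10 neuron genes summed to 18741 TPM. Whether the 2 cells touched in the dish, or RNA or reads passed between their libraries, was not tested.

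In the other 324 neurons Egfl7 and Esam were common, Tek, Pecam1 and Kdr often had reads at very low levels, and Flt1, Ly6a, Ly6c1, Cdh5 and Cldn5 had reads in fewer neurons. Of the 10 members, Egfl7, Esam and Ly6a alone were at 10 TPM or more in 16 or more neurons.

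Egfl7 was at 10 TPM or more in 290 of the 324 neurons and above 0 in 310, with a median of 41.9 TPM, quartiles of 24.4 and 60.5 and a maximum of 152 in TL replicate 56. Esam was at 10 TPM or more in 110, above 0 in 188, with a median of 3.22 TPM and a maximum of 95.9 in TL replicate 22. Both ranges lay below the value of TL replicate 43, by 5.59 times for Egfl7 and 7.18 times for Esam.

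Tek was above 0 in 197 of the 324 neurons but reached 10 TPM in 3, with a median of 0.450 and a maximum of 15.2 TPM in LS replicate 130. Pecam1 was above 0 in 107 (maximum 11.6 TPM), Kdr in 78 (8.20 TPM), Flt1 in 52 (10.9 TPM), Cdh5 in 13 (2.06 TPM) and Cldn5 in 7 (353 TPM, in TL replicate 36). Ly6a was above 0 in 28 neurons and at 10 TPM or more in 16, and Ly6c1 in 32 and 10.

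By mean level in the 324 neurons the order was Egfl7 at 42.4 TPM, Esam at 10.1, Ly6a at 5.68, Ly6c1 at 2.53, Tek at 1.24, Cldn5 at 1.12, Pecam1 at 0.421, Kdr at 0.355, Flt1 at 0.161 and Cdh5 at 0.0258. The means of Ly6a, Ly6c1 and Cldn5 rest on a few neurons, since their medians are 0. With TL replicate 43 included, Cldn5 had a mean of 60.2 TPM, the highest of the 10.

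The members did not move as a group once TL replicate 43 was set aside. Over 45 pairs of members, the median Pearson correlation of log2(TPM + 1) was 0.30 across 325 neurons and 0.07 across 324. Cldn5 with Cdh5 fell from 0.89 to 0.52, with a Spearman correlation of 0.08, and both genes then had their highest value in TL replicate 36. Cdh5 with Flt1 fell from 0.74 to 0.10. Ly6a with Ly6c1 kept a correlation of 0.66 (Spearman 0.54), the highest pair, and Egfl7 with Tek had 0.37 and with Esam 0.26. All points share the same libraries and their depth.

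A neuron with 3 or more of the 10 genes at 10 TPM or more is called a carrier here. There were 12 carriers, 3.69% of 325 neurons (interval 1.92% to 6.36%), and 11 without TL replicate 43. Among these 11, all had Egfl7, 9 had Ly6a and 7 had Esam, so the count was made mostly of Egfl7 and a Ly6 gene. When Egfl7 and Esam are left aside, 299 neurons held none of the other 8 genes, 18 held 1, 7 held 2 and TL replicate 43 held 8.

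TL replicate 94 was the only neuron beside TL replicate 43 with Pecam1 at 10 TPM or more, at 11.6 TPM, together with Esam at 21.7 and Egfl7 at 51.3. LS replicates 46 and 52 held Esam, Egfl7, Ly6a and Ly6c1, and their Cldn5 and Cdh5 were at 0. TL replicate 36, described above, held Cldn5, Esam, Egfl7 and Ly6c1.

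The share of carriers in TL and LS differed by less than its counting error. There were 6 of 167 TL neurons (3.59%, interval 1.33% to 7.66%) and 6 of 158 LS neurons (3.80%, 1.41% to 8.08%), and without TL replicate 43 TL held 5 of 166 (3.01%, 0.985% to 6.89%). Plates 1 to 6 held, in that order, 1, 0, 4, 2, 3 and 2 carriers among 5, 48, 47, 74, 75 and 76 neurons. The 0 in plate 2 allows a share of up to 7.40% by the exact interval, and the intervals of all plates overlap. At 2 or more members the segments stood further apart, at 50.9% of TL and 22.8% of LS neurons. Of these 121 neurons, 105 held Egfl7 and Esam together, and Esam was more frequent in TL. Of the other 8 genes, 2 were held by 3 TL and 4 LS neurons, and all 8 by TL replicate 43.

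The ranges of genes detected in carriers and other neurons overlapped. Carriers had a median of 12665.5 genes above 0 (7775 to 17102) and the other 313 neurons 13699 (6291 to 17193). Thinned to 400000 reads the medians were 11231 and 11423 genes. The difference in the deposited data turned its sign when plate 5 was left out, from -1033.5 to 337 genes, so no order is read from it.

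The mean level of the 10 genes followed genes detected to a degree that changed with the scale and the pseudocount. This is a description over neurons that share depth with both measures. Pearson's r between the mean log2(TPM + 1) of the members and genes above 0 was 0.26 over 325 neurons (Spearman 0.47) and 0.50 over 324 (0.49). Within plates 2 to 6, without TL replicate 43, r lay between 0.43 and 0.62. After thinning to 400000 reads it was 0.49 over 324 neurons. With reads per neuron it was 0.18. Over 325 neurons, r with genes detected was 0.07 on the deposited scale and 0.10 with a pseudocount of 10. It was 0.31 with CPM and 0.41 with a pseudocount of 0.1.

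Reads on several members were more frequent in neurons with more genes detected. The 324 neurons were put in 4 sets of 81 by genes above 0, and from the set with the fewest (6291 to 11968) to that with the most (14621 to 17193), neurons with reads on Tek went from 5 to 75 of 81, on Pecam1 from 11 to 51 and on Kdr from 4 to 39. Egfl7 at 10 TPM or more went from 58 to 78 of 81 and Esam from 18 to 38. Ly6a at 10 TPM or more was in 6, 4, 2 and 4 neurons of the sets and followed no such order. Reads on Cldn5 were found in 0, 0, 1 and 6 neurons of the sets, and on Cdh5 in 0, 3, 3 and 7, so most neurons with reads on these genes were in the set with the most genes. The sets were formed by genes above 0, so a rise in neurons with reads is in part built in. The share of all genes with such a rise was not computed, so the rise is not read as a trait of the members.

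**Figure D3:**
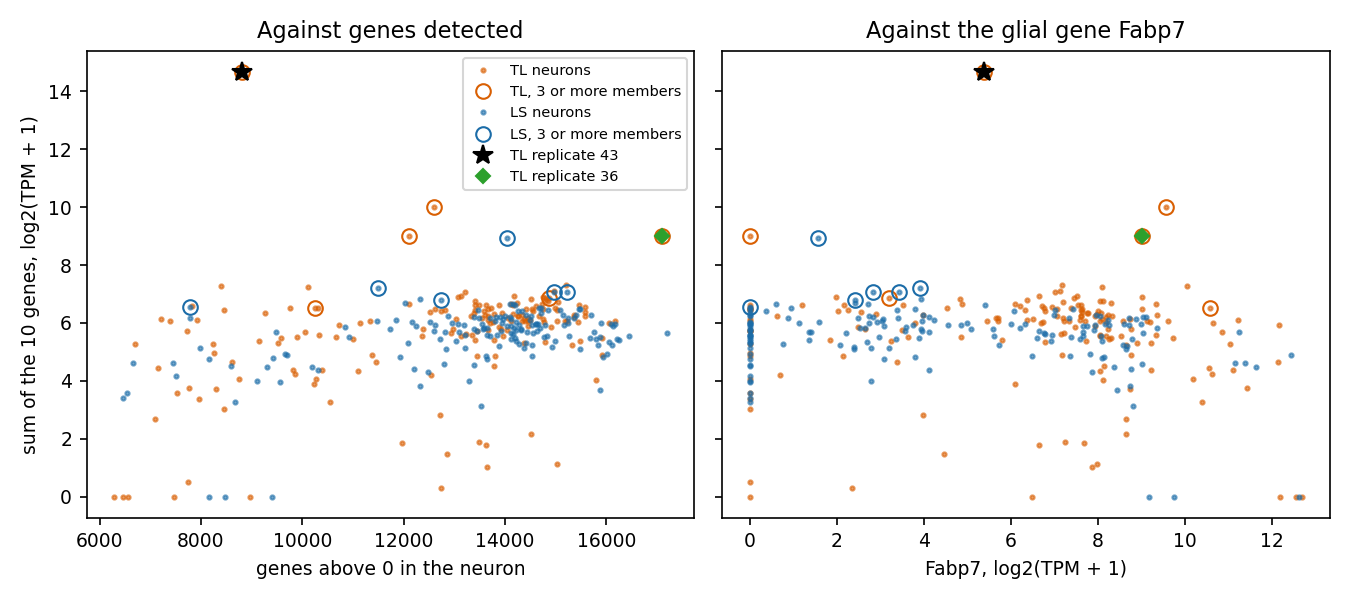
Sum of the 10 genes as log2(TPM + 1) in each of 325 neurons against genes above 0 (left) and Fabp7 as log2(TPM + 1) (right), with carriers ringed, TL neurons in orange and LS neurons in blue. The sum climbs over the lower range of genes detected and shows no upward course with Fabp7, and TL replicate 43 (star) lies far above both clouds at 26130 TPM.

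Fabp7 was lower in carriers by its median. It was at 10 TPM or more in 216 of 325 neurons. Among carriers 5 of 12 held it (41.7%, interval 15.2% to 72.3%), without TL replicate 43 4 of 11 (36.4%, 10.9% to 69.2%), and among the other neurons 211 of 313 (67.4%, 61.9% to 72.6%). The median was 9.003 TPM in carriers and 98.2 TPM in the others, and the intervals of the shares overlap. The correlation of the member mean with Fabp7, both as log2(TPM + 1), was -0.07 over 325 neurons and -0.10 over 324, and within plates 2 to 6 without TL replicate 43 it ran from -0.28 to 0.15.

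Neurons rich in Fabp7 were poorer in Egfl7. In the 23 neurons at 1000 TPM or more of Fabp7, 16 had Egfl7 at 10 TPM or more (69.6%, interval 47.1% to 86.8%), against 274 of the 301 others (91.0%, 87.2% to 94.0%), leaving out TL replicate 43. The sum of the members had a median of 23.4 TPM in these 23 and of 46.7 to 64.2 TPM in the neurons at lower Fabp7. Those 23 neurons also had fewer genes above 0, a median of 8761 against 13833, and the part of that in the result was not tested.

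Egfl7 was a gene of most neurons of both segments. It was at 10 TPM or more in 141 of 166 TL neurons (84.9%, interval 78.6% to 90.0%) and 149 of 158 LS neurons (94.3%, 89.5% to 97.4%), with means of 42.3 and 42.5 TPM. The share was higher in LS in each of plates 2 to 6, as it was for 11.9% of the 12054 genes at 10 TPM or more in 16 or more neurons, while the mean was higher in LS in 3 of these plates.

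The 34 neurons with Egfl7 under 10 TPM, 25 TL and 9 LS, had a median of 9273 genes above 0 against 13879.5 in the other 290. Of them 12 held Mrgprd, the receptor gene by which the study marks its mNP neurons, against 5 of 290. Among all 17 neurons with Mrgprd at 10 TPM or more, 5 had Egfl7 (29.4%, interval 10.3% to 56.0%), and among the 307 without it 92.8% did (89.4% to 95.5%). By segment these were 4 of 15 TL and 1 of 2 LS neurons.

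Across the 324 neurons the genes most like Egfl7 were Ngfr, the p75 neurotrophin receptor gene, at a Pearson r of 0.70, Ptprn at 0.68, Phactr2 at 0.67, Kcnk4 at 0.67 and Ptprn2 at 0.66. An r of 0.3 or more with Egfl7 was reached by 21% of 12051 genes, so many genes of these neurons share part of its pattern. Median Ngfr was 1600 TPM in neurons with Egfl7 and 106 TPM in those under 10 TPM. Egfl7 overlaps Agpat2 on the other strand at its 3′ end, and the method does not keep strand, so reads in the overlap cannot be told apart. Agpat2 had a median of 2.52 TPM and an r of 0.34 with Egfl7.

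Esam was found in more TL than LS neurons. It was at 10 TPM or more in 82 of 166 TL neurons (49.4%, interval 41.6% to 57.3%) and 28 of 158 LS neurons (17.7%, 12.1% to 24.6%), with means of 14.8 and 5.07 TPM, a ratio of 2.92. Of 12054 genes, 4.41% had a mean at least 2-fold higher in TL and 4.26% at least 2-fold lower. Within plates the share ran from 34.2% to 59.5% in TL and from 10.8% to 32.0% in LS, and TL was higher in each of plates 2 to 6, as for 5.73% of genes. The interval of each share does not reach the other, but these are 1 TL and 1 LS sample.

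**Figure D4:**
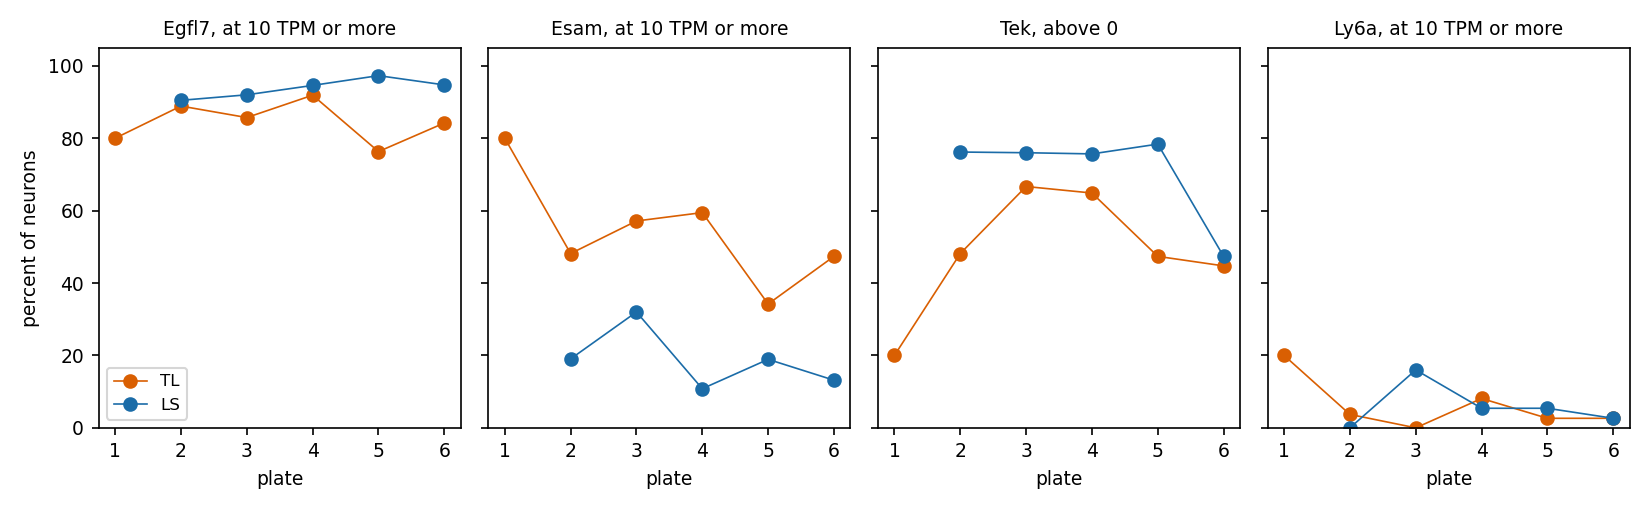
Percent of neurons by plate for Egfl7, Esam and Ly6a at 10 TPM or more and for Tek above 0, with TL in orange, LS in blue and TL replicate 43 left out. Esam lies higher in TL in each of plates 2 to 6, Tek and Egfl7 lie higher in LS, and Ly6a crosses.

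The share of neurons with Esam differed between the subtype markers of the study. It was at 10 TPM or more in 30 of 40 neurons with Fam19a1, the mNFb marker (75.0%, interval 58.8% to 87.3%), against 28.2% of the rest, and in 16 of 24 with Smr2, the mPEPa marker (66.7%, 44.7% to 84.4%). It was found in 5 of 44 neurons with Hpse, the pNF marker (11.4%, 3.79% to 24.6%), and 1 of 48 with Ntm, the pPEP marker (2.08%, 0.0527% to 11.1%). For Trpa1, the mPEPb marker, it was 69 of 170 (40.6%, 33.1% to 48.4%), and for Mrgprd and for Cbln2, the mNFa marker, 3 of 17 each (17.6%, 3.80% to 43.4%). These markers were chosen by the study on these same neurons.

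Fam19a1 and Ntm marked the same difference inside a segment. In TL, 25 of 34 neurons with Fam19a1 had Esam (73.5%, interval 55.6% to 87.1%) against 57 of 132 without (43.2%, 34.6% to 52.1%), and in LS it was 5 of 6 against 23 of 152. In LS, 1 of 48 neurons with Ntm had Esam against 27 of 110 without (24.5%, 16.8% to 33.7%). With Smr2 it was 11 of 17 TL neurons (64.7%, 38.3% to 85.8%) against 47.7% without (39.4% to 56.0%), with intervals that overlap. In LS it was 5 of 7 (71.4%, 29.0% to 96.3%) against 15.2% (9.91% to 22.0%). Mrgprd and Cbln2 marked 15 and 12 TL neurons, and 3 of each had Esam. Their intervals, 4.33% to 48.1% and 5.49% to 57.2%, overlap those without the marker (44.0% to 60.5% and 43.1% to 59.4%). Hpse and Ntm marked no TL neuron at 10 TPM. Among LS neurons the share with Hpse was 11.4% (3.79% to 24.6%) and without it 20.2% (13.2% to 28.7%), with intervals that overlap. For Trpa1, Esam was in 47.3% of TL neurons that held it (37.7% to 57.0%) and 53.6% of those that did not (39.7% to 67.0%). In LS these were 28.3% (17.5% to 41.4%) and 11.2% (5.74% to 19.2%). The intervals overlap in both segments, so no direction is read. Among the 68 LS neurons with neither Ntm nor Hpse, 22 had Esam (32.4%, 21.5% to 44.8%), between the shares of all LS and all TL neurons.

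**Figure D5:**
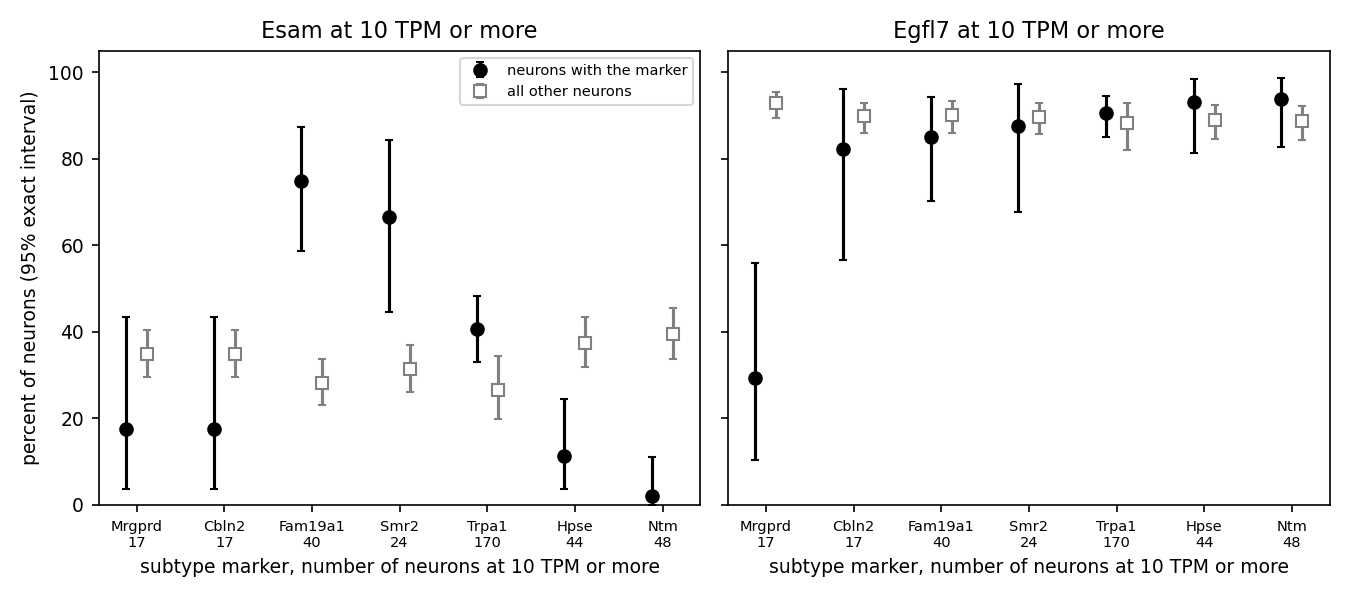
Percent of neurons with Esam (left) and Egfl7 (right) at 10 TPM or more among neurons with each subtype marker (filled) and all other neurons (open), without TL replicate 43, with exact 95% intervals. Esam is highest with Fam19a1 and lowest with Ntm, and Egfl7 is lowest with Mrgprd.

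The genes most like Esam were Nrp1, which encodes neuropilin-1, a co-receptor of semaphorins and vascular growth factor, at an r of 0.49, the glutamate receptor gene Grik4 at 0.47, Ahnak2 at 0.46, Dclk1 at 0.45 and the potassium channel gene Kcnq5 at 0.44. An r of 0.3 or more with Esam was reached by 1.73% of 12051 genes. Cdh5, its neighbour in endothelial junctions, was at 0 in most of these neurons, with 13 of 324 above 0.

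Tek was found in more LS than TL neurons, at very low levels. Reads on Tek were found in 110 of 158 LS neurons (69.6%, interval 61.8% to 76.7%) and 87 of 166 TL neurons (52.4%, 44.5% to 60.2%), higher in LS in each of plates 2 to 6, as for 11.2% of the 22949 genes above 0 in 16 or more neurons (higher in TL in each for 3.48%). The means were 1.71 and 0.797 TPM. All 3 neurons at 10 TPM or more were LS. Tek, as log2(TPM + 1), had an r of 0.46 with genes detected, whose part in this was not tested. The genes most like it were Col6a2 at 0.55, Gm42418 at 0.54 and Meg3 at 0.53, and 16.4% of genes reached 0.3.

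Flt1 was above 0 in 36 LS and 16 TL neurons, Pecam1 in 60 and 47, Kdr in 39 and 39, and Cdh5 in 3 LS and 10 TL neurons. Most of these values lay far under 10 TPM, so no level is compared.

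Ly6a and Ly6c1 were present in few neurons, in part the same ones. Without TL replicate 43, 16 neurons held Ly6a at 10 TPM or more, 7 of 166 TL (4.22%, interval 1.71% to 8.50%) and 9 of 158 LS (5.70%, 2.64% to 10.5%). The highest were TL replicate 158 at 557 TPM, TL replicate 129 at 450 and LS replicate 56 at 324 TPM, and the lowest was LS replicate 145 at 10.1. Cldn5 and Cdh5 were at 0 in all 16 neurons, which says little, since 7 and 13 of all 324 neurons had reads on them.

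Ly6c1 was at 10 TPM or more in 6 of these 16 neurons and in 4 of the 308 others. TL replicate 158 held 427 TPM of Ly6c1 from 163 reads and 557 TPM of Ly6a from 153 reads. LS replicate 56 held 84.2 TPM from 116 reads, and LS replicate 108 held 59.1 TPM from 45 reads. TL replicate 8, at 153 TPM of Ly6a, held no read on Ly6c1, so the pair was not always together.

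Another gene of the family had a higher mean in the same neurons. Ly6e, a broadly transcribed relative, was at 10 TPM or more in 14 of the 16 neurons (87.5%, interval 61.7% to 98.4%) against 57.5% of the 308 others (51.7% to 63.1%), with means of 99.7 and 19.3 TPM. The intervals of the shares overlap. Ly6e was also higher in LS in each of plates 2 to 6 by this share and by its mean, and 9 of the 16 neurons are LS. Ly6 genes are alike in sequence and reads may be split between copies, which was not tested. Ly6c2 had 5 reads in all and Ly6i 34 reads, with a maximum of 15.2 TPM in TL replicate 158. Ly6g had 102 reads, 90 of them in LS replicate 56, where it stood at 116 TPM against 84.2 TPM of Ly6c1 and 324 TPM of Ly6a, so the Ly6 values of that neuron are uncertain.

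Most of the 16 neurons carried Trpa1, the irritant-gated channel gene by which the study marks its mPEPb neurons. It was at 10 TPM or more in 13 of 16 (81.2%, interval 54.4% to 96.0%) against 51.0% of the others (45.2% to 56.7%), and the intervals overlap. Hpse was in 0 of 16, which allows a share of up to 20.6%, against 14.3%. Fabp7 was at 10 TPM or more in 8 of 16 (50.0%, 24.7% to 75.3%) against 67.2%, and the sums of 10 neuron genes had medians of 16206 and 16213 TPM.

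Of 30 further pan-endothelial genes, 2 had a mean at least 2-fold higher in the 16 neurons, Icam2 and Podxl, and 18 at least 2-fold lower. Of all 12052 genes at 10 TPM or more in 16 or more neurons, 2.09% were higher and 8.6% lower, but 5 of the 30 pass that filter and 12 have reads in under 20 of 324 neurons, so the shares are not comparable. The 30 genes summed to 5.04 to 113 TPM in the 16 neurons (median 57.6) and 0 to 491 TPM in the 308 others (median 42.2). The genes most like Ly6a across 324 neurons were Avpr1a, a vasopressin receptor gene, at an r of 0.31, Pappa at 0.27, Prss12 at 0.26 and Ly6e at 0.26, and 0.0083% of genes, 1 of 12051, reached 0.3.

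Across the table, the genes that went with the 10 members changed with TL replicate 43. Over 325 neurons, genes among the highest in correlation with the member mean were Jup, a junction gene, at 0.41, Pcdh1 at 0.39, Syne1 at 0.37, Procr at 0.37 and Icam2 at 0.37, with Procr, Icam2 and Jcad known from endothelium, and 0.514% of 12051 genes reached 0.3. Over 324 neurons, they included Kcnk4 at 0.55, Jup at 0.53, Tenm4 at 0.52, Plxna4 at 0.52, Ebf4 at 0.51 and Ngfr at 0.50, and 11.5% reached 0.3.

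Ratios of mean TPM between carriers and other neurons showed the same split. With TL replicate 43, 268 of 7847 genes (3.42%) were at least 2-fold higher in carriers and 275 (3.5%) at least 2-fold lower. Without it, 124 of 7710 (1.61%) were higher and 282 (3.66%) lower. Procr (9.74 times), Icam2 (6.99), Lmo2 (6.00) and Swap70 (4.91) were among the 15 highest with it and had their highest carrier value in TL replicate 43. Among the 15 highest without it were 6030408B16Rik (10.9 times), Sez6l (8.11), Prss12 (6.63), Pappa (5.62), Nell1 (5.18), Timp1 (5.09) and Ly6e (4.99).

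These rest on few neurons. Of the 11 carriers, Pappa was at 10 TPM or more in 8, Ly6e in 10, Rnase4 in 10, Timp1 in 5 and 6030408B16Rik in 3, the last with a highest value of 496 TPM in TL replicate 1. Among the lowest ratios, Uts2b had a mean of 0.249 TPM in the 11 carriers against 482 in the others, where 14.4% of neurons held it. Otop3 and Gm26233 were at 0 in all 11, which allows a share of up to 28.5%, against 26.8% and 27.5% of the others. Carriers are defined by the member genes and by Ly6a in the main, so these ratios describe the neurons chosen and are no test.

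Lists of other cell types had ranges in the 11 carriers that lay within those of the other neurons. The 10 fibroblast genes summed to 0.215 to 177 TPM (others 0 to 2154), the 10 mural cell genes to 0 to 31.2 TPM (0 to 846), the 10 macrophage genes to 0 to 77.0 TPM (0 to 299) and the 6 MHC class II genes to 0 to 72.2 TPM (0 to 1465). Satellite glia genes summed to a median of 123 TPM in carriers and 1055 TPM in the others, with ranges of 6.91 to 36724 and 2.38 to 99877 that overlap. Of the 30 further pan-endothelial genes, 9 had a mean at least 2-fold higher in these carriers and 7 at least 2-fold lower. Without TL replicate 36 as well, 1 was higher, Icam2, and 16 were lower. Of the 30, 5 pass the filter used for all genes and 12 have reads in under 20 of 324 neurons. No share over all genes is therefore set beside these counts. The sum of the 30 genes had a median of 47.3 TPM in the 11 carriers and 43.3 TPM in the others.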

How the data were processed

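Single neurons were sequenced by Smart-seq2. Per the labels, the submitters' processing notes name bcl2fastq 2.15.0.4, STAR 2.4.1, featureCounts 1.4.4 and the mouse build GRCm38.p3. The authors deposited 1 table of normalised log2 values, log2(x + 1), for 325 neurons that had passed their quality filter and from which neurons with satellite glia had not yet been removed. Here x is proportional to reads over gene length. It was rescaled to TPM, with 1000000 in each neuron. Reads were recovered with GENCODE M21 exonic lengths, which gave whole reads for 65.0% of values above 0 (relative tolerance 1e-06), and for 8712 genes with lengths found from the values. Genes detected were also computed after thinning to 400000 reads. Ratios and correlations used genes at 10 TPM or more in 16 or more neurons and a pseudocount of 1.

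The members and lists were chosen with earlier results of these data known. The genes named are the members, Fabp7, the highest of each list, the genes with the highest correlation, and the extreme ratios with the same direction in TL and LS. Each plate was also left out in turn. No test was made, since no neuron is tied to a mouse, and no doublet caller was run. The steps were tested on simulated data. Alternatives changed the scale, the threshold, the number and choice of members, the neurons, the plates and the pseudocount. Python 3.11.15, numpy 2.4.6, pandas 2.3.3 and scipy 1.17.1 were used. Added after the data were seen were the runs without TL replicates 43 and 36, the 145-gene set and its choice with each neuron left out, the interferon and nerve injury lists, and the naming of list genes at 0. All columns of the table were used, and 74 labelled neurons and 13 bath controls were not analysed here. The identity of the Ly6 proteins had been planned and was not computed here. A few genes that the naming rule or the lists would give are not reported here.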

Additional observations from a re-analysis of the deposited data

How the results depend on the processing

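Under some alternatives a result could not change, and such values count as unmoved below. The correlations use neither the call nor the number of members asked for, and the carrier results do not use the pseudocount. Of 170 values of 9 results under 19 alternatives, 132 were labelled unmoved. For shares this meant staying within the main interval, and for counts staying within 1.5 times. The other results had to keep their sign and move by less than the spread over plates. That spread was 0.312 for the median correlation between members, wider than the main value of 0.303. Its fall to 0.07 without TL replicate 43 thus counted as unmoved. The spread was also wider than the size of the main value for the other results judged by it. For the correlation with genes detected it was 0.287 against 0.26, and for that with Fabp7 0.159 against -0.07. For the difference in genes detected it was 1163 against -1033.5. A correlation with genes detected of 0.07 on the deposited scale thus also counted as unmoved. With CPM there were 21 carriers, 151 genes at least 2-fold higher in them and a difference in median genes detected (carriers minus others) of 390 in place of -1033.5. With the deposited scale unchanged there were 20 carriers and 1819 such genes. The set of genes compared changed with the scale, the call, the neurons and the carriers. Counts of genes 2-fold higher are thus not comparable between alternatives, including those without a plate. A call at 1 TPM gave 129 carriers (38.3% of TL, 41.1% of LS), a difference of 1267 genes and 510 genes 2-fold higher. Fabp7, here also called at 1 TPM, was in 85.3% of these carriers, where 272 of all 325 neurons had it above 0. A call at 50 TPM gave 3 carriers (1.20% and 0.633%) and a difference of 389 genes, and a call on thinned reads a difference of 119. Asking for 2 members gave 121 carriers (50.9% and 22.8%), 105 of them with both Egfl7 and Esam. The difference was 552 genes, and 81 genes were 2-fold higher. Asking for 5 left 1 carrier, TL replicate 43 (0.599% of TL, 0% of LS), with a difference of -4861.5 genes, Fabp7 in 100% and 2117 genes 2-fold higher. Without Ly6a and Ly6c1 there were 3 carriers, 0% of LS, a difference of -3418.5 genes, Fabp7 in 100% of carriers and 1228 genes 2-fold higher. Without the 68 neurons of few genes 114 genes were 2-fold higher, and without TL replicate 43 there were 124. Without neurons holding Fabp7 there were 7 carriers, a difference of 566.5 genes and a correlation with Fabp7 of 0.32. The causes were not tested.

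Leaving out each plate in turn gave 8 to 12 carriers, 2.76% to 4.29% of TL and 3.01% to 4.38% of LS neurons, and a difference in genes detected from -1259.5 to 337, the last without plate 5. It gave Fabp7 in 37.5% to 45.5% of carriers, correlations of 0.21 to 0.49 with genes detected and -0.10 to -0.03 with Fabp7, a median correlation between members of 0.02 to 0.35, and 199 to 338 genes 2-fold higher. No paired analysis was possible because each number names a single neuron, given in accession order, and no result comes from a test. With 12 carriers, shares are known only to within their counting intervals, and a gene near 1 read can be missed in shallow libraries.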

Other observations

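Of 8 genes for ligands of the member receptors, Vegfb was present in most neurons and each other gene in at most 55 of 323. Leaving out TL replicates 43 and 36, Vegfb, a ligand of Flt1, was at 10 TPM or more in 311 of 323 neurons with a median of 42.8 TPM, and was listed at 0 in TL replicate 43. Vegfa, the main ligand of Kdr, was at 10 TPM or more in 17 of 323 with a median of 2.54 TPM. Pgf, another ligand of Flt1, was in 55 (17.0%), Angpt2, a ligand of Tek, in 25 and Angpt1 in 1. TL replicate 43 held Angpt2 at 98.2 TPM, and the other 7 ligand genes of the list were at 0 there.

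A list of 12 interferon-stimulated genes and a list of 7 nerve injury genes were read in the 16 neurons with Ly6a after its values had been seen. Of the first, 1 had a mean at least 2-fold higher in the 16 than in the 308 other neurons, Gbp2 at 2.54 times, and 0 were at least 2-fold lower. Of the second, 2 were higher, Ecel1 at 5.50 times and Sprr1a at 3.89 times, and 1, Npy, was lower, at 0 in all 16. That 0 says little, since Npy reached 10 TPM in 1 of the 323 neurons other than TL replicates 43 and 36. Of all 12052 genes at 10 TPM or more in 16 or more neurons, 2.09% were at least 2-fold higher and 8.6% lower. Npy fails that filter, so the counts are a description and are not set against these shares. Ecel1 was at 10 TPM or more in 6 of 16 (37.5%, interval 15.2% to 64.6%) and 9.09% of the others (6.13% to 12.9%). It was also among the genes most like Ly6a, at an r of 0.23 across 324 neurons. Sprr1a was at 10 TPM or more in 3 of 16, and its share in the others is not given here.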
